A study of Drosophila melanogaster with 3 samples.

Results

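The genes numb, neur, spdo, insc, pros, mira, brat, dx and Su(dx) act in the asymmetric divisions that give sibling cells different fates, or tune Notch signalling. All 9 of them, of 18164 annotated genes, were looked up by name and chosen for their roles, with earlier results of these data known. Binding of Hey, a basic helix-loop-helix repressor related to Hairy, was read at each gene and in the 5 kb on either side of it. The material was whole Drosophila melanogaster embryos of both sexes pooled, 6 to 24 h old, from 1 transgenic line that stably expresses Hey with GFP at its C terminus, assayed by chromatin immunoprecipitation and sequencing (ChIP-seq). There was 1 group, in 3 biological replicates, with no second genotype, stage or tissue. The sources used here give neither the promoter that drives the fusion, nor the state of the endogenous Hey gene, nor the number of animals per replicate. Whole embryos mix neural and non-neural cells, so regions from different cell types cannot be told apart. One label field described the libraries as input controls, whereas the assay title named transcription factor ChIP and a separate experiment was listed as the control. The assay title was followed.

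The replicates and their pool were each deposited as 30000 regions, and a further list held the 3319 regions kept by the authors' threshold on the irreproducible discovery rate (IDR). The pooled list is named as peaks and background for that step, so its entries below the threshold may be background. The replicate lists, of the same length, may hold background at low ranks too. The IDR list was made up of the 3319 highest pooled regions by signal value, which is the authors' own value for a region, has no stated scale and ranks regions only within 1 list. Read depth is unknown, and the intervals below cover counting error over regions only. A replicate is said to hold a region where 1 of its own 3319 highest regions had a summit within 100 bp. A region was given to a gene by the place of its summit alone, so a gene with a region is not thereby shown to respond to Hey.

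In the developing nervous system a neuroblast divides into another neuroblast and a ganglion mother cell, which divides once more into a pair of sibling neurons. Crescents of protein on one side of the dividing cell pass to one daughter only, and there they switch Notch off or start differentiation, while the other daughter keeps Notch on. Hey is known as a Notch target that is switched on in the Notch-on siblings of many embryonic neuronal divisions.

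Hey regions of the IDR list were found at 6 of the 9 genes. numb, neur and brat had 4 each, pros had 2, insc and dx had 1 each, and spdo, mira and Su(dx) had none. Regions were counted by summit, and 2 of those at numb shared 1 interval. The strongest lay deep in introns: neur held the region ranked 71 of 3319 with a signal value of 747, and numb the region ranked 113 with a signal value of 620, against a median of 173 over the IDR list. The other 14 regions ranked between 673 and 3306.

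The sequences at the neur and numb summits are shown first because they carry these highest regions and differ in their sites. They are given 5′ to 3′ on the plus strand in dm6, over 100 bp to either side of the summit, with the sites in capitals. In the neur window, chr3R:9027165-9027365, the capitals mark CACGTG, an E-box that Hey-family proteins bind in vitro. In the numb window, chr2L:9442988-9443188, they mark a minus-strand match to the N-box CACNAG.
neur, region ranked 71: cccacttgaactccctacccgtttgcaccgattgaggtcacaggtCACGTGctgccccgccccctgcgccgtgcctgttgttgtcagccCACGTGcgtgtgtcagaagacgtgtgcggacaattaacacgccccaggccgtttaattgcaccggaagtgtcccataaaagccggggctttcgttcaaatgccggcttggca
numb, region ranked 113: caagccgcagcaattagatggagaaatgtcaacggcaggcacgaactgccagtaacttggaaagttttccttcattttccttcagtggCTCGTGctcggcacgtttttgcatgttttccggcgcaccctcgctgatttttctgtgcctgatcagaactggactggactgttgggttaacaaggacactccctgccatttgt

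The neur window held CACGTG at chr3R:9027210-9027215 and again at chr3R:9027254-9027259, with the first bases 44 bp apart and 55 and 11 bp to the left of the summit. At least 2 CACGTG within 100 bp of the summit occurred in 56 of all 3319 IDR regions (1.69%, 95% Wilson interval 1.30 to 2.18). The numb window held neither CACGTG nor CACGCG, a class C site bound by Hairy-related repressors, and its N-box match began 12 bp to the left of the summit.

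CACGCG lay at 4 of the other IDR regions, and none of those had CACGTG. These sites are shown with 10 bp on either side, with the capitals marking the site, which reads CGCGTG where it lies on the minus strand. The last 2 lines give the sites at the highest pooled regions of spdo and mira, which were not on the IDR list.
numb, first intron, minus strand, chr2L:9443340-9443365: caggacatggCGCGTGttctgcccaa
numb, 5′ UTR, plus strand, chr2L:9437550-9437575: tgtgtgcgtgCACGCGcgggtgtgtg
neur, intron, minus strand, chr3R:9024959-9024984: tgatatgcggCGCGTGgcactgaaga
brat, first intron, plus strand, chr2L:19135129-19135154: tcctcgcgccCACGCGccgcagcgct
spdo, upstream, both strands, chr3R:30475540-30475565: aaaaggacaaCACGCGTGcatccaac
mira, downstream, plus strand, chr3R:19931460-19931485: tgccaagggaCACGTGtgcgtaatca

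How often genes of this size carry a region matters for reading these counts. Of all 18164 genes, 30.0% had an IDR summit inside them or within 5 kb, and of the protein-coding genes 31.0%. The share rose with gene length, from 23.2% of genes up to 1 kb to 58.6% of genes over 50 kb. The members had a median length of 14.8 kb, and of genes at least that long 54.6% had a region, while of genes at least as long as spdo, the shortest member, 37.9% did. The count of 6 of 9 mixes long and short members, so none of these shares is a like background for it. All members of 10 to 20, 20 to 50 and over 50 kb had a region, where 46.4%, 55.4% and 58.6% of genes did. Each class holds too few members for an excess to be read from this. Of the 4 members under 10 kb, spdo, mira and Su(dx) had no region, and dx had its region at the start of a neighbouring gene.

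**Figure D1:**
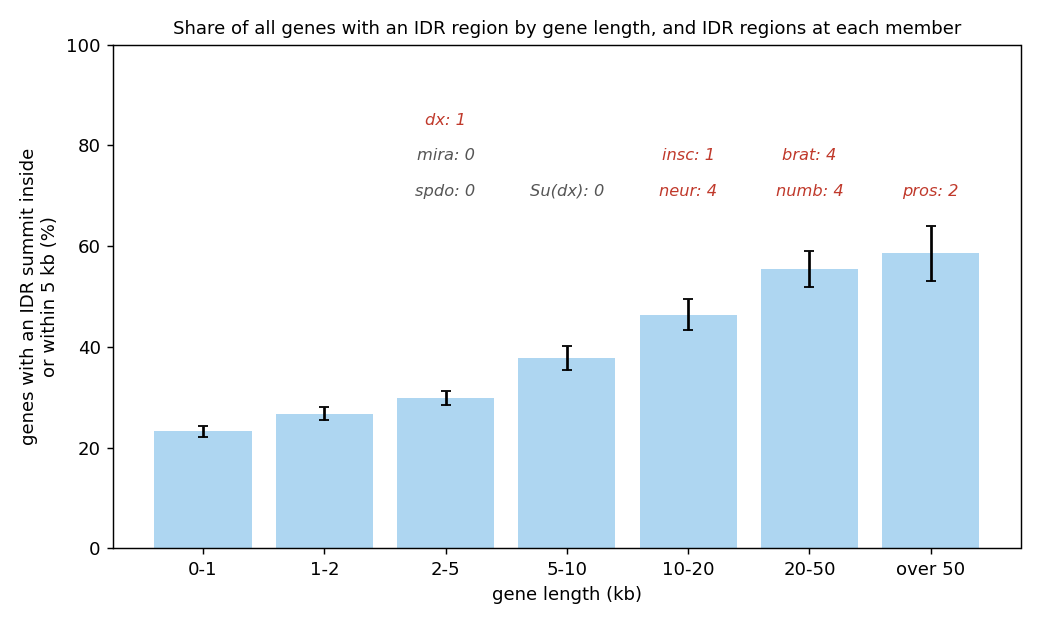
Bars give the percentage of all annotated genes with an IDR summit inside the gene or within 5 kb, by gene length in kb, with 95% Wilson intervals, and the text above each bar gives the number of IDR regions at each member of that length class. The share rises from 23.2% to 58.6%, and the members with 4 regions lie in the classes from 10 to 50 kb.

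The number of regions per gene set numb, neur and brat apart more than their presence did. Of all genes, 1.62% had 4 or more IDR regions, and of genes at least as long as the median member 10.1%. Such counts were not particular to numb, neur and brat among genes of related roles, which are read further below. Of those genes, pum had 8 regions, jar 5, and scrib and nerfin-1 4 each, and the others had fewer than 4. In summits per 100 kb of gene and flanks, neur had 13.7, numb 10.9, brat 7.15, dx 6.86, insc 4.04 and pros 2.24. The dx and insc values rest on 1 summit each, and that of dx lay 37 bp from the TSS of RpL7A. All gene windows together had 2.70 per 100 kb and the 6 chromosome arms 2.48, so pros, the longest member at 79.1 kb, had no more than the arms at large. The summed windows of the 9 genes had 5.47 per 100 kb over 292 kb.

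**Figure D2:**
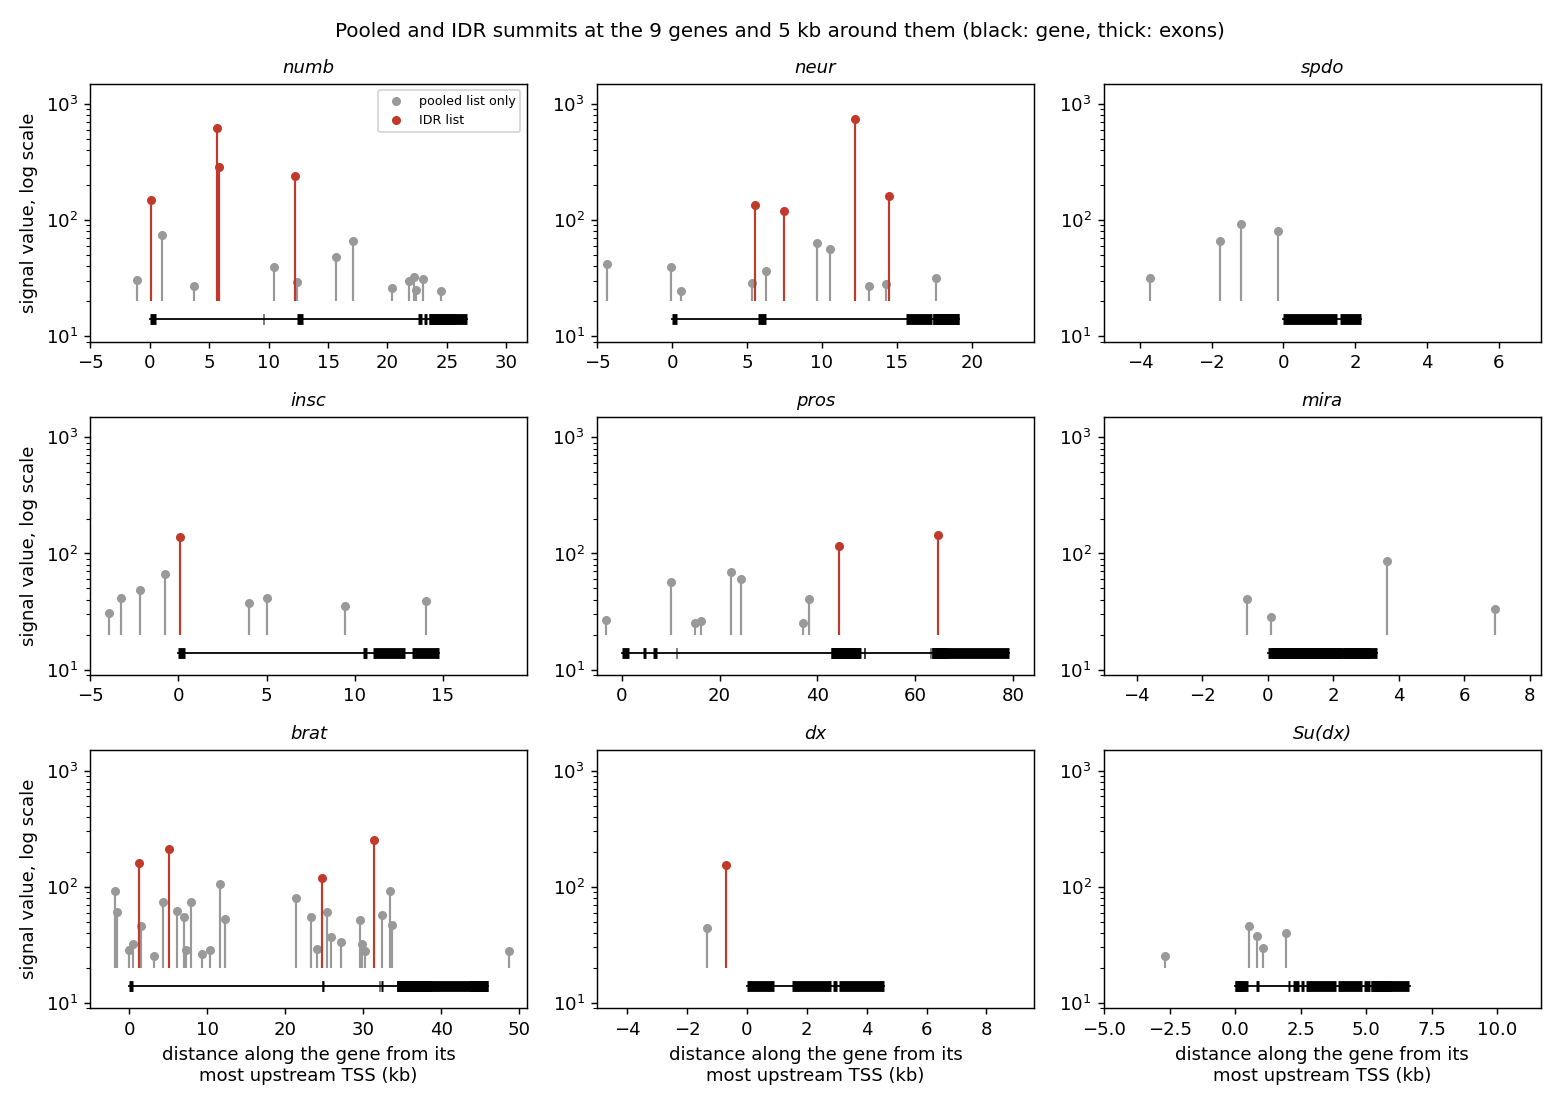
Each panel plots the summits of the pooled list at 1 gene, by distance in kb along the gene from its most upstream transcription start site (TSS) and by signal value on a log axis, with IDR regions in red, other pooled regions in grey, and exons as thick black bars; stem length has no meaning of its own. The red summits of numb, neur and brat lie mostly in long introns, and spdo, mira and Su(dx) have grey summits only.

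numb (FBgn0002973, chr2L:9437469-9464184, plus strand) encodes the membrane-associated adaptor that is inherited by 1 daughter and blocks Notch there. Its highest region, chr2L:9442767-9443455, held 2 summits on the IDR list, at 9443088 with a signal value of 620 and at 9443291 with 286, which lay 203 bp apart in the first intron and 5619 and 5822 bp downstream of the upstream TSS. The nearest TSS of any gene was that of CG33723, 2348 and 2551 bp away.

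The replicates placed these summits differently. At 9443088 replicate 2 had a summit of rank 51 and signal value 335, and replicate 3 one of rank 75 and signal value 212, while replicate 1 had none within 100 bp. The closest in replicate 1, of rank 909 and signal value 95.8, lay 121 bp away. That same summit was within 82 bp of 9443291, where replicates 2 and 3 ranked 289 and 425. Replicates 2 and 3 thus had a pair of summits where replicate 1 had 1 between them, and the region was high in all 3.

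Both promoters of numb carried a weaker region. At the downstream promoter the summit, 9449686, lay 144 bp upstream of the TSS, with a signal value of 238 and rank 949. All 3 replicates held it, at ranks 2083, 561 and 1713 in replicates 1, 2 and 3. The upstream promoter had a summit at 9437580 in the 5′ UTR, 111 bp downstream of its TSS, with a signal value of 148, rank 2183 and a CACGCG 20 bp to the left of the summit. It ranked 1415 in replicate 1 and 3068 in replicate 3, but 12380 in replicate 2, so replicate 2 did not hold it.

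neur (FBgn0002932, chr3R:9020348-9039471, minus strand) encodes the E3 ubiquitin ligase that drives endocytosis of Delta in the signal-sending cell and so activates Notch in its sibling. The region ranked 71, chr3R:9027071-9027450, had its summit at 9027265, in the first intron, inside all 5 annotated transcripts, and 6466 bp downstream of the nearest neur TSS. The nearest TSS of any gene, that of asRNA:CR31429, was 5058 bp away. Replicates 1, 2 and 3 gave it signal values of 189, 327 and 232 and ranks of 193, 56 and 58, with summits 12, 0 and 0 bp from the pooled one. It was the highest region of the window in every list.

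The other 3 neur regions were weaker and split by replicate. The summits at 9025001, with a signal value of 161 and a CACGCG 32 bp to its left, and at 9033937, 206 bp upstream of the inner TSS and with a signal value of 134, were held by replicates 2 and 3. At 9025001 they ranked 1994 and 1305, and at 9033937 they ranked 1622 and 1631. Replicate 1 had no summit within 100 bp of either, and its nearest ones, 137 and 131 bp away, ranked 7221 and 12912. The summit at 9032009, with a signal value of 121, was held by replicate 1 alone, at rank 1709 against 9714 and 9081 in replicates 2 and 3.

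brat (FBgn0010300, chr2L:19133816-19179758, plus strand) encodes a translational repressor that is passed to 1 daughter, where it stops self-renewal. Its highest region, chr2L:19165085-19165271, had its summit at 19165211 in an intron, 656 bp upstream of the innermost TSS, with a signal value of 255 and rank 846. Replicates 1, 2 and 3 ranked it 982, 978 and 1400, so all 3 held it well within their lists. None of the sites searched lay within 100 bp.

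The second brat region, with its summit at 19138934 in the first intron and a signal value of 210, was also held by all 3 replicates, at ranks 2017, 1084 and 952. The third, at 19135109 with a signal value of 160, lay in the 5′ UTR of Polr1D, a gene nested in that intron that encodes an RNA polymerase subunit, 124 bp from its TSS and 1293 bp from that of brat. Replicate 2 alone held it, at rank 1429, while replicate 1 ranked it 4003 and the nearest summit of replicate 3, of rank 1561, was 109 bp away. The fourth, at 19158574 with a signal value of 119, lay 34 bp downstream of the middle TSS of brat and in an exon of lncRNA:CR44977. Replicate 1 ranked it 1312, replicate 2 19640 and replicate 3 14669.

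pros (FBgn0004595, chr3R:11328480-11407627, plus strand) encodes a homeodomain factor that enters the nucleus of the ganglion mother cell and represses neuroblast genes. Both of its regions were low on the list and each was held by 1 replicate. The summit at 11393014, with a signal value of 144 and rank 2312, lay in the 3′ UTR, 20226 bp from the nearest pros TSS, and ranked 1091 in replicate 2 against 6690 and 6436 in replicates 1 and 3. The summit at 11372812 was among the last of the IDR list, at rank 3306. It lay 24 bp downstream of the innermost pros TSS and ranked 1307 in replicate 3 against 7286 and 6922 in replicates 1 and 2. Neither had any of the sites searched within 100 bp.

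insc (FBgn0011674, chr2R:20821262-20836028, minus strand) encodes the adaptor that ties the apical Par complex to the spindle-orienting machinery. Its region had a signal value of 138 and rank 2466, with the summit at 20835942 in the 5′ UTR, 86 bp from the insc TSS. sktl, which encodes a phosphatidylinositol phosphate kinase, is annotated on the same strand with a transcript that starts at the same base, and the summit lay in its 5′ UTR too. Replicates 1 and 2 ranked it 2021 and 1945, and replicate 3 ranked it 9900.

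dx (FBgn0000524, chrX:6533999-6538575, plus strand) encodes a RING-finger protein that binds the intracellular part of Notch and steers its endosomal traffic. Its region, chrX:6533200-6533359, had a signal value of 153 and rank 2055. The summit at 6533293 was 706 bp upstream of dx, but only 37 bp from the TSS of the ribosomal protein gene RpL7A, in whose 5′ UTR it lay. Replicates 1 and 2 ranked it 2198 and 1276, and replicate 3 ranked it 7581.

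The 3 genes without an IDR region had only pooled entries below the IDR threshold, which may be background. spdo (FBgn0260440, chr3R:30476684-30478849, plus strand) encodes the transmembrane protein that Notch needs at asymmetric divisions and that Numb removes from the membrane. Its highest pooled region had a signal value of 93.2 and rank 4557, with a summit 1191 bp upstream of the TSS, in an intron of PH4alphaEFB, and CACGCG on both strands in the overlapping run CACGCGTG. Replicates 1, 2 and 3 ranked it 5828, 7346 and 15129. Replicate 3 had another summit, 1322 bp upstream of spdo, at rank 3059 and so within its 3319 highest.

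mira (FBgn0021776, chr3R:19931799-19935120, minus strand) encodes the scaffold that carries Pros and Brat to the basal side of the neuroblast. Its highest pooled region had a signal value of 85.9 and rank 5142, with a summit 309 bp beyond the 3′ end of mira, in an intron of Hs6st, and a CACGTG 20 bp to the left of the summit. Replicates 1, 2 and 3 ranked it 5364, 6336 and 14103. Su(dx) (FBgn0003557, chr2L:2037714-2044372, plus strand), which encodes a HECT-domain ubiquitin ligase of the Nedd4 family that lowers Notch signalling, had the weakest of these regions. It had a signal value of 45.6 and rank 12543 in the first intron, with a summit within 100 bp in replicate 2 only, at rank 7046. With the 6638 highest pooled regions, 2 for every IDR region and a limit chosen after the data were seen, 8 of the 9 genes had a region, all but Su(dx). The share of all genes, not matched for length, was 44.2%.

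**Figure D3:**
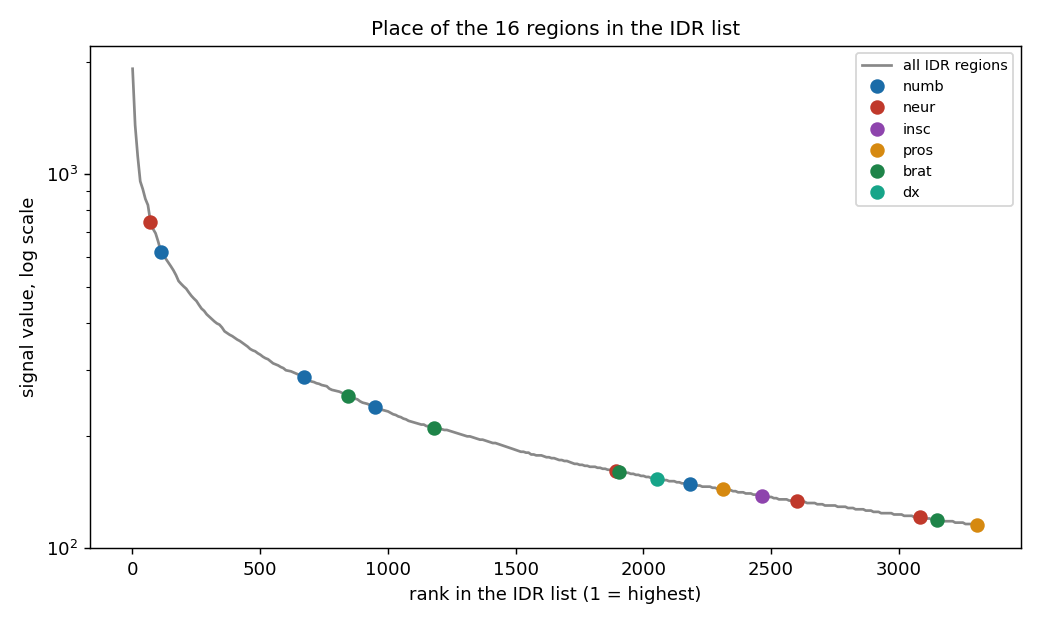
Signal value on a log axis against rank for all regions of the IDR list (grey line) and for the 16 regions at the 6 genes (coloured points). The highest neur and numb regions, at ranks 71 and 113, stand on the steep part of the curve, and the other 14 run from rank 673 to rank 3306.

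As a set, the 16 regions were not among the stronger ones. Their median signal value was 157 against 173 over all IDR regions, and 6 of the 16 lay in the upper part of the list, ranks 1 to 1659. Those 6 belonged to numb, neur and brat alone. By position, 15 of the 16 summits were inside the gene and 10 were in introns of every overlapping transcript of it. Of the 16, 8 were within 500 bp of a TSS of any gene, with a 95% Wilson interval of 28.0 to 72.0%. That interval holds the share over all IDR summits, 37.1%. For 8 summits the nearest TSS belonged to another gene, namely CG33723 for the numb pair, asRNA:CR31429 for 2 at neur, Polr1D for 2 at brat, mRpL40 for 1 at pros and RpL7A for that of dx.

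The replicates were compared next. Replicates 1, 2 and 3 held 10, 12 and 10 of the 16 regions. All 3 held 5 of them (31.2%, 95% Wilson interval 14.2 to 55.6), against 36.5% of all IDR regions, so the members' support was near the background. Those 5 were the numb summits at 9443291 and 9449686, the neur summit at 9027265 and the brat summits at 19165211 and 19138934. A further 6 were held by 2 replicates and 5 by a single replicate, and 0 of the 16 by none. Without replicate 1, 8 of the 16 were held by both of the others.

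By gene, numb, neur and brat had an IDR region held by all 3 replicates, 3 of 9 against 14.6% of all genes and 29.4% of genes at least as long as the median member. Without replicate 3, insc and dx joined them and the count was 5. Irrespective of the IDR list, replicates 1, 2 and 3 had 1 of their 3319 highest regions at 5, 6 and 5 of the 9 genes (5.33 ± 0.577, SD, n = 3). The shares of all genes, which are not matched to the members' greater length, were 32.4%, 28.5% and 30.2%. numb, neur and brat had such a region in each replicate. insc and dx had one in replicates 1 and 2, pros in replicates 2 and 3, and spdo in replicate 3.

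**Figure D4:**
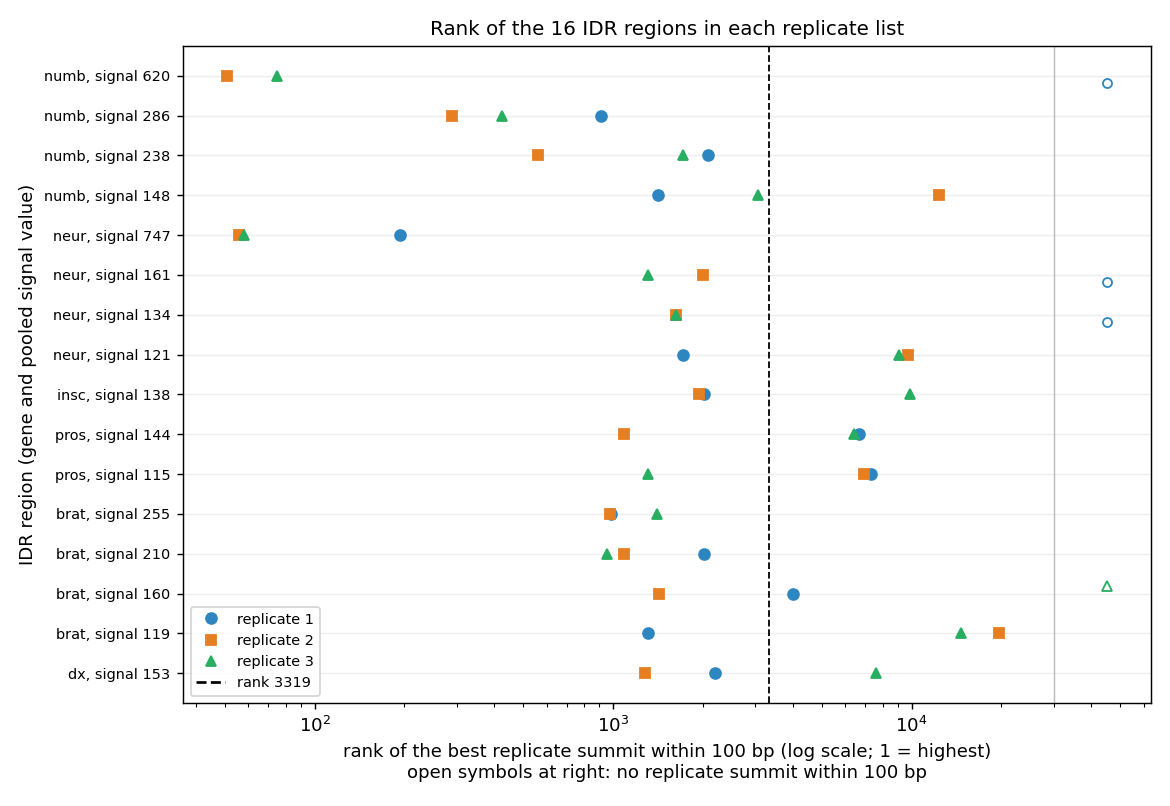
Each row is 1 of the 16 IDR regions, named by gene and pooled signal value, and each symbol the rank of the highest summit of 1 replicate within 100 bp, on a log axis. The dashed line marks rank 3319 and open symbols mark no summit within 100 bp; the neur region of signal value 747 lies left of rank 200 in all 3 replicates, and 5 rows have all 3 symbols left of the line.

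Regions at these genes were more often among the highest than among the lowest of each replicate. Of the 3319 highest regions, 11, 12 and 14 lay in the 9 windows in replicates 1, 2 and 3 (12.3 ± 1.53, SD, n = 3). Of the 3319 lowest, 4, 5 and 10 did (6.33 ± 3.21), so the highest outnumbered the lowest in 3 of 3 replicates. The exact permutation test, two-sided and unpaired, gave p = 0.1, the smallest that 3 values against 3 allow, so it could not decide. The members were also chosen with earlier results of these data known, so no conclusion is drawn from it. Over all genes, 97.2%, 93.6% and 94.2% of the highest regions of replicates 1, 2 and 3 were inside a gene or within 5 kb, and 94.0%, 89.6% and 92.4% of the lowest. These shares are near their upper limit, so they give no scale for the excess in the 9 windows.

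The sites at the 16 summits were set beside those of the IDR list as a whole. CACGTG lay within 100 bp of 1 summit (6.25%, 95% Wilson interval 1.11 to 28.3), that of neur, against 17.1% of all IDR summits. CACGCG lay within 100 bp of 4 (25.0%, 10.2 to 49.5), against 15.0%. Together, 5 of the 16 had at least 1 of them (31.2%, 14.2 to 55.6), against 29.9%. Further out, from 400 to 600 bp on each side of the summit, CACGTG or CACGCG occurred in 2 of 32 windows of the members and in 6.93% of those of all IDR regions. The N-box CACNAG lay at 7 of the 16 (43.8%, 23.1 to 66.8) against 26.8% of all, with 21.9% of the members' outer windows and 21.8% of all outer windows holding it. CAGCTG lay at 2 against 9.82% of all, and in 9.38% and 8.0% of the outer windows. GTGGGAA or GTGAGAA, forms of the site of the Notch partner Su(H), lay at 1, the numb summit at 9443291, against 5.0% of all. It was in 9.38% of the members' outer windows, a larger share than at their summits (6.25%), and in 4.62% of all outer windows. Each site was searched on both strands, and in each case the share of all IDR summits lay within the members' interval. Intervals this wide show neither a difference nor its absence. Of the 5 regions held by every replicate, the neur one had CACGTG, the numb one at 9443291 had CACGCG, and the other 3 had neither.

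Genes that act beside the members were read in the same way, in 3 lists chosen for their roles, also with earlier results known. Their counts are read against 30.0% of all genes with an IDR region, and against 46.4% of genes of 10 to 20 kb and 37.7% of genes of 5 to 10 kb, the classes that hold the lists' median lengths. Of 17 genes of the asymmetric division machinery, with a median length of 10864 bp, 9 had an IDR region, led by cno (signal value 420), scrib (353) and aPKC (261), which encode cell-cortex and polarity proteins, and aurA (199), a mitotic kinase. The nearest TSS was another gene's for 3 of these 4 regions, namely lncRNA:CR46084 at scrib, ckn at aPKC and GC1 at aurA. baz, par-6, mud, l(2)gl and stau were among the 8 without one.

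Of 15 genes of Notch trafficking and tuning, with a median length of 11013 bp and so in the class where 46.4% had a region, 9 had a region, led by kuz, which encodes a Notch-cleaving protease (365), Nak, a Numb-associated kinase (355), l(2)gd1 (345) and shrb (320), which act in endosomal sorting of Notch. The kuz region was nearer to the TSS of B4, that of shrb to those of CG44286 and CG8788. Nedd4, which encodes a ubiquitin ligase related to that of Su(dx), had a region of signal value 252, nearer to the TSS of lncRNA:CR45165, that all 3 replicates held. Of 13 genes of neuroblast and daughter cell fate, with a median length of 6366 bp and so in the class where 37.7% had a region, 8 had a region, led by pum (681), whose product represses translation together with Brat, erm (620), nerfin-1 (529) and lola (258). The regions of erm and nerfin-1 were nearer to the TSS of tRNA:Arg-TCT-2-1 and mat. Regions held by all 3 replicates occurred at 4 of 17, 5 of 15 and 5 of 13 genes of the lists and at 3 of the 9 members. The share was 14.6% of all genes and 29.4% of genes at least as long as the median member. The lists' median lengths are below that length, so 29.4% is not a like share for them. Of the 5 in the last list, nanos and sqz shared their highest region.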

How the data were processed

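The deposited lists are in narrowPeak format. Their signal values are scores as deposited by the authors, and the −log10 q-values deposited beside them share 1 highest value over many regions and were not used. Listings deposited beside the samples derive each replicate's regions from its own alignment and 1 further file, not used here, and the pooled regions from all 3 alignments and that file. The assembly is dm6, per the labels. Caller, settings and IDR threshold were not given in the sources used here. Read depth is unknown. Replicate numbers came from the labels, which number biological replicates.

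Genes came from Ensembl release 115 (BDGP6.54, dm6 coordinates) without transposable elements, which left 18164 genes and 23998 TSS positions, and sequence from the RefSeq release 6 genome. Coordinates are 1-based. nak and nos appear in the annotation as Nak and nanos. Each site was searched on both strands within 100 bp of the summit. The count of summits in the member windows and the search for CACGTG and CACGCG were tested on simulated data, and the other steps were not (Python 3.11.15, scipy 1.17.1). The members and lists were chosen with earlier results of these data known. All members were named with all their IDR regions, or their highest pooled region, and of each list the 4 genes with the highest signal. baz, par-6, mud, l(2)gl, stau, jar, Nedd4, nanos and sqz were named after their values were seen.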

Additional observations from a re-analysis of the deposited data

How the results depend on the processing

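The number of genes with an IDR region was 5 with summits inside the gene only and 6 with windows of 1 or 10 kb. In the upper part of the IDR list, ranks 1 to 1659, it was 3, and the number of regions fell from 16 to 6. Where each summit went to the nearest TSS alone, 8 regions remained, at 5 genes. With the 6638 highest pooled regions there were 26 regions, at 8 genes, and without repeated intervals 15, at 6 genes, both chosen after seeing the data. The number of regions held by all replicates, 5 in the report, was 3 among the 1659 highest regions of each replicate and 12 with all their regions, and 6 to 8 with 1 replicate left out. The matching number of genes, 3 in the report, was 6 with all regions of each replicate and 3 to 5 with 1 replicate left out. The number of summits with CACGTG or CACGCG was 4 within 50 bp and 6 within 200 bp. The excess of highest over lowest regions was 6.0 per replicate. Among the 1659 highest and 1659 lowest regions it was 5.33, and the exact permutation test gave p = 0.2. With 1 replicate left out the excess was 5.5 to 7.0, and the exact permutation test gave p = 0.333 each time. Every replicate had an excess, so leaving 1 out could not change its direction. As a paired comparison, with the replicate block, the exact sign-flip test gave p = 0.25 for the same difference of 6.0, the smallest that 3 pairs allow. The cause of the shifts between replicates was not tested. Read depth is unknown, so an absent region cannot be told from one too weak to be called.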

Other observations

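Some of the highest regions of single replicates at these genes had summits more than 100 bp from any IDR summit, though some of these summits fell inside an IDR region. Of the 14 regions of replicate 3 within the 9 windows and among its 3319 highest, 10 were within 100 bp of an IDR summit. The other 4 were the spdo summit at rank 3059 and 3 in the first intron of brat. Those at 19135218 (rank 1561) and 19139101 (rank 3254) were 109 and 167 bp from a brat IDR summit, inside the interval of its region. The summit at 19137892 (rank 1544) was 1042 bp from the nearest brat IDR summit. Of the 11 of replicate 1, the 1 beyond 100 bp lay in numb at 9449856 (rank 3099), 170 bp from the IDR summit of the downstream promoter. All 12 of replicate 2 were at IDR summits. brat also had the most entries in the pooled and replicate lists, 32 of the 97 pooled ones in the 9 windows and 25, 25 and 38 in replicates 1, 2 and 3. These counts include entries at low ranks, which may be background.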
